A study of Homo sapiens with 8 samples.

Results

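The genes for the proteins of the mitochondrial ribosome were followed in 2 colorectal cancer cell lines after knockdown of a protein of the cytosolic ribosome. Members were all genes whose symbol begins with MRPL or MRPS and a number and whose mean was at least 1 RPKM (reads scaled by transcript length and by the size of the library) over the 8 libraries. There were 76 of them among the 14281 genes that reached this level and the 19124 genes listed, 47 with MRPL and 29 with MRPS symbols, and every matching symbol reached the level. HCT116 and HT29, established human colorectal cancer lines, were grown in RPMI medium and transfected through Lipofectamine 2000 with siRNA at 15 nM against RPL9, RPL17 or RPL27, which encode proteins of the large cytosolic subunit. The cells they were set against received a negative control siRNA (NC) at the same dose, and RNA was taken 48 h after transfection in all groups. Each line and siRNA gave 1 library, so no value within a line has a replicate. Tests of an siRNA took the 2 lines as replicates, and tests of the lines took the 3 RPL siRNAs as replicates.

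Mitochondria keep a small genome that encodes core subunits of the respiratory chain, and a ribosome of their own translates these messages at the inner membrane. The RNAs of this ribosome are made inside the organelle, whereas all of its proteins are encoded in the nucleus, made on cytosolic ribosomes and imported. MRPL genes encode proteins of the large subunit, where peptide bonds form, and MRPS genes mostly encode proteins of the small subunit, which reads the messenger RNA. Some of these proteins have counterparts in bacterial ribosomes and others are found only in mitochondria.

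Every member was expressed in all 8 libraries. The mean level ran from 48.7 to 2063 RPKM over the MRPL genes and from 61.9 to 1207 RPKM over the MRPS genes. Multiplied by transcript length, the deposited values summed to at least 17.2 times the total that RPKM allows in each of the 8 libraries, and to 1.71 to 1.78 times after division by the number of exons. Levels are therefore set side by side only between libraries and never between genes. Over the 6 RPL siRNA libraries the highest value of a member was a median of 1.46 times the lowest for MRPL and 1.42 times for MRPS genes, against 1.70 times over the 13719 tested genes above 0 in all 6. MRPL41 had the widest range among the members, 2.72-fold, and MRPS31 the narrowest, 1.13-fold. Many of these genes have processed pseudogenes whose reads may have been shared, and whether counting used the strand is not stated in the labels. Their absolute levels are therefore uncertain.

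In the libraries as a whole, each targeted gene was lowest in the 2 libraries of its own siRNA. EPCAM, an epithelial marker, was at 2248 to 4431 RPKM and KRT8 and KRT18 were high in all 8 libraries, while the intestinal factor CDX1 was at or near 0 in all 8 and KRT20 and VIL1 were high only in HT29. COL1A1 was at 252 to 437 RPKM, but the other fibroblast markers COL1A2, DCN and LUM reached 1.32 RPKM at most. Of the endothelial markers, PECAM1 and CDH5 reached 0.437 RPKM at most and VWF was at 0.327 to 6.58 RPKM. Of the leukocyte genes, PTPRC and CD14 reached 1.87 RPKM at most, CD3E was listed at 8.03 RPKM in the HT29 RPL27 library and at 0 in the other 7, and LYZ was high in the HT29 libraries. The HT29 NC library stood apart: its distance from the mean of the libraries went down with transcript length (rank correlation -0.53 over 14181 genes), where the other 7 had correlations of 0.12 to 0.23. In HT29 short transcripts were therefore lower, and long ones higher, in each RPL siRNA library than in NC. The members are short, with median transcript lengths of 1234 bases (MRPL) and 1500 bases (MRPS) against 2733 bases over the tested genes. The medians over the members, the calls of the joint contrast and of the line difference, and the named members' tests against NC are therefore also given after a spline on length was removed from every library. Other values that use it are given as deposited unless length removal is named.

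In HCT116 cells most members were at higher values under each RPL siRNA than under NC siRNA. The median difference on the scale of log2(RPKM + 1) was 0.29, 0.20 and 0.08 over the MRPL genes under RPL9, RPL17 and RPL27 siRNA, and 0.23, 0.19 and 0.21 over the MRPS genes. Over all tested genes these medians were 0.0089, -0.0048 and 0.02. Above NC were 39, 38 and 29 of the 47 MRPL genes and 22, 22 and 21 of the 29 MRPS genes, where 50.6%, 49% and 51.3% of all genes were above it. Under all 3 siRNAs 43 of the 76 members were above NC, against 33% of all genes, and 7 were below it, against 32.4%. In bulk RNA, fewer cells of a kind and less RNA per cell cannot be told apart. All of these differences rest on the same single NC library, and most are small: 6, 6 and 6 members were at least 1.5-fold above NC under RPL9, RPL17 and RPL27 siRNA, against 16.3%, 12.7% and 14.4% of all genes.

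The members with the larger differences in HCT116 came from both subunits. MRPL47, a large subunit protein with a bacterial counterpart, was at 945, 841 and 852 RPKM under RPL9, RPL17 and RPL27 siRNA, against 518 RPKM under NC siRNA. MRPL15, another such protein, was at 382, 377 and 315 RPKM, against 227 RPKM. MRPS12, which lies at the decoding site of the small subunit, was at 197, 163 and 162 RPKM, against 106 RPKM. In all 3 genes the NC library had the lowest of the 4 HCT116 values. MRPL47 was chosen for its values. MRPL12, the stalk protein that also binds the mitochondrial RNA polymerase, moved less, with differences of 0.17, 0.12 and -0.01. MRPL44, a mitochondria-specific protein with a ribonuclease III-like fold, had differences of -0.18, 0.03 and -0.18, and MRPL45, which tethers the ribosome to the inner membrane, had 0.44, 0.33 and 0.41.

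In HT29 cells the deposited values gave the opposite picture. The median differences from NC were -0.55, -0.74 and -0.75 over the MRPL genes under RPL9, RPL17 and RPL27 siRNA and -0.43, -0.63 and -0.64 over the MRPS genes, while all tested genes had medians of 0.17, 0.20 and 0.19. Below NC were 39, 40 and 41 of 47 MRPL genes and 25 of 29 MRPS genes under each siRNA, against 43.7%, 41.8% and 42.3% of all genes. Under all 3 siRNAs 63 members were below NC, against 32.7% of all genes, and 9 were above it, against 46.6%.

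**Figure D1:**
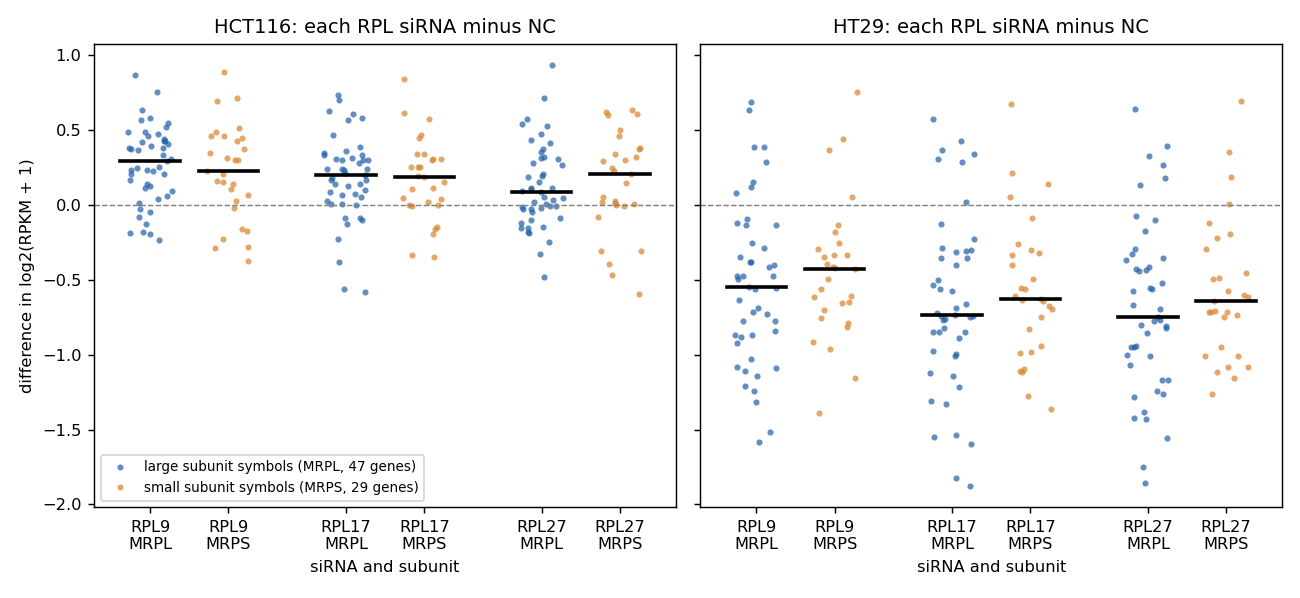
Difference in log2(RPKM + 1) of each RPL siRNA from NC siRNA for every member, HCT116 on the left and HT29 on the right. Each point is 1 gene in 1 library against the NC library of its line and black bars are medians. The HCT116 medians lie between 0.08 and 0.29, and the HT29 medians between -0.75 and -0.43.

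These HT29 differences moved with transcript length. The 17 members under 1 kb had a median of -0.97 for the joint RPL siRNA effect, the 45 members from 1 to 2 kb a median of -0.57 and the 14 members of 2 kb or more a median of -0.06. All tested genes of the same lengths had medians of -0.69, -0.36 and 0.45. Over the 76 members the rank correlation of the difference with length was 0.59 in HT29 and 0.08 in HCT116. These are descriptions of values that share 1 NC library in each line.

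**Figure D2:**
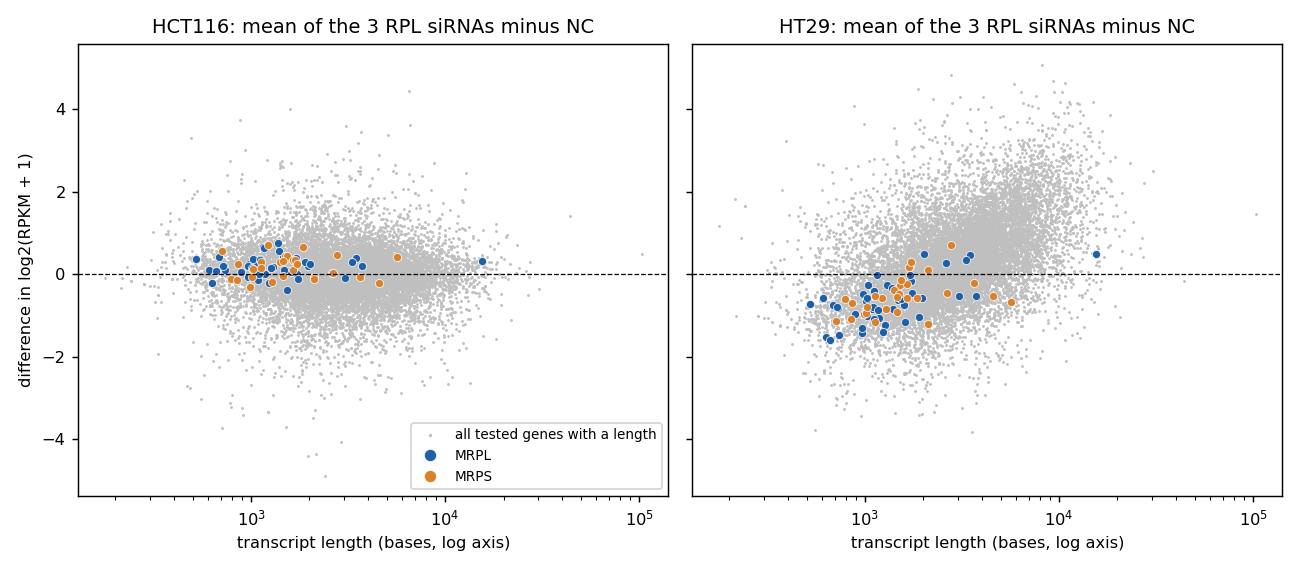
Mean difference in log2(RPKM + 1) of the 3 RPL siRNA libraries from NC against the length of the annotated transcript, for the members (blue MRPL, orange MRPS) and for the tested genes with a length (grey). In HT29 the cloud rises with length (rank correlation 0.52 over all genes and 0.59 over the members), and in HCT116 it is flat (-0.06 and 0.08).

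After the length trend was removed the HT29 medians came to -0.22, -0.33 and -0.41 over the MRPL genes and -0.17, -0.34 and -0.26 over the MRPS genes. Then 50 members were below NC under all 3 siRNAs, against 40.8% of all genes. The annotated transcripts of MRPL42, MRPS23, MRPL35 and MRPS25 are several times longer than the median coding transcript of those genes. With that median length in the spline, a choice made after seeing the data, the HT29 medians came to -0.48, -0.64 and -0.65 (MRPL) and -0.40, -0.56 and -0.59 (MRPS). The HCT116 medians after the first correction were 0.26, 0.18 and 0.05 (MRPL) and 0.20, 0.21 and 0.21 (MRPS). The direction of both medians in both lines was thus the same on all 3 scales, while its size in HT29 depended on the length used. How much of the remaining HT29 difference belongs to the NC library was not tested.

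Taking both lines together, 32 members were above NC in HCT116 and below it in HT29 under all 3 siRNAs, 18 MRPL and 14 MRPS, against 8.67% of all genes. With length removed there were 21, against 10.5%. The reverse pattern was found in 0 members, against 12.6% of all genes. A group of 7 was above NC in all 6 comparisons (MRPL3, MRPL19, MRPL30, MRPL42, MRPL50, MRPS27 and MRPS35), against 18% of all genes. Another 7 were below it in all 6 (MRPL13, MRPL22, MRPL48, MRPL54, MRPS6, MRPS14 and MRPS25), against 13%. Both counts are smaller shares than those of all genes. After removal of the annotated transcript length the groups held 9 and 7 members, against 16% and 16.8% of all genes. MRPL3, MRPS27 and MRPS35 of the named members stayed above NC in all 6. MRPL13, MRPL22, MRPL48, MRPL54 and MRPS6 stayed below it.

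MRPS27 was the member with the highest mean difference. It encodes a pentatricopeptide repeat protein of the small subunit. MRPS27 had 1247, 1242 and 1289 RPKM in HCT116 cells under RPL9, RPL17 and RPL27 siRNA, against 913 RPKM under NC siRNA, and 1080.3, 1019.7 and 1036 RPKM in HT29 cells, against 639.8 RPKM under NC siRNA. All 6 RPL siRNA values lay above both NC values. With limma and Benjamini-Hochberg adjustment over all tested genes the mean difference was 0.59 (SE 0.14, adjusted p = 0.104), which does not pass the threshold of 0.05. After length removal it was 0.51 (SE 0.11, adjusted p = 0.0483), the 1 member of 76 past the threshold there, against 2.71% of all genes higher, and with the median transcript length 0.63 (SE 0.14, adjusted p = 0.0628), which does not. Without the HT29 NC library the mean difference was 0.46, and without the HCT116 NC library 0.71. Each of these fits rests on 1 NC library.

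MRPL3, whose bacterial counterpart lies near the peptidyl transferase centre, had 2386, 2379.8 and 2326 RPKM in HCT116 cells under RPL9, RPL17 and RPL27 siRNA, against 1818 RPKM under NC siRNA, and 1849, 2106 and 1931 RPKM in HT29 cells, against 1704 RPKM under NC siRNA. The values of each line lay above that line's NC value. The mean difference was 0.29 (SE 0.13, adjusted p = 0.228) with limma. MRPL19, a large subunit protein with a bacterial counterpart, differed by 0.43 (SE 0.15, adjusted p = 0.166), and the mitochondria-specific MRPL42 by 0.41 (SE 0.14, adjusted p = 0.16). With the annotated and the median transcript length removed the mean differences were 0.39 and 0.35 (adjusted p = 0.0699 and 0.134) for MRPL3 and 0.26 and 0.47 (adjusted p = 0.279 and 0.108) for MRPL19. For MRPL42 the sign depended on the transcript length used. Its mean difference from NC in HT29 was 0.50 as deposited, -1.07 with its annotated transcript of 15582 bases and 0.62 with its median transcript of 920 bases, and over both lines it was -0.38 and 0.47 with these lengths.

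Among the members below NC in both lines, MRPL48, a mitochondria-specific protein of the large subunit, had 495, 388 and 462 RPKM in HCT116 cells under RPL9, RPL17 and RPL27 siRNA, against 581 RPKM under NC siRNA, and 573, 457 and 480.4 RPKM in HT29 cells, against 765 RPKM under NC siRNA. The NC library had the highest value of each line, and the mean difference was -0.50 (SE 0.15, adjusted p = 0.138) with limma. MRPL54, also mitochondria-specific, had 129.7, 114 and 138 RPKM in HCT116 cells under RPL9, RPL17 and RPL27 siRNA, against 149 RPKM under NC siRNA, and 106, 90.4 and 77.9 RPKM in HT29 cells, against 265 RPKM under NC siRNA. Its difference of -0.88 (SE 0.33, adjusted p = 0.183) came mostly from HT29, and its annotated transcript of 626 bases is among the short ones. MRPS6, a small subunit protein, differed by -0.64 (SE 0.24, adjusted p = 0.178). With the annotated and the median transcript length removed the differences were -0.36 and -0.44 (adjusted p = 0.12 and 0.11) for MRPL48, -0.65 and -0.86 (adjusted p = 0.117 and 0.141) for MRPL54 and -0.41 and -0.58 (adjusted p = 0.206 and 0.164) for MRPS6. The size rests on the NC library kept. Without the HT29 and without the HCT116 NC library the difference was -0.23 and -1.54 for MRPL54. In the same order it was -0.31 and -0.97 for MRPS6 and -0.38 and -0.61 for MRPL48.

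In the fit over both lines limma called 0 of the 76 members for the RPL siRNAs jointly against NC at an adjusted p under 0.05, against 0.168% of all genes, and 8 had an unadjusted p under 0.05, against 24.6%. The median difference was -0.24 over the MRPL genes, -0.14 over the MRPS genes and 0.10 over all tested genes. It was -0.08, -0.06 and 0.00 after length removal and -0.19, -0.17 and -0.01 with the median transcript length, by which 1 member (MRPS27) and 0 members were called. For RPL9, RPL17 and RPL27 siRNA alone limma also called 0 members each, against 0.007%, 0.014% and 0% of all genes. At an unadjusted p under 0.05 there were 4, 4 and 6 members, against 20.4%, 15.7% and 16.7%. These counts depend on the NC libraries. A fit that leaves out an NC library rests on 1 NC library, so no excess of members over all genes is read from its counts. The share of 12.9% below counts genes called either way, higher or lower. With the HT29 NC library left out, 10 members were called in the mean contrast, all higher (MRPL3, MRPL15, MRPL33, MRPL40, MRPL47, MRPS12, MRPS18B, MRPS23, MRPS24 and MRPS27), against 12.9% of all genes. Without the HCT116 NC library 57 members were called, 4 higher and 53 lower, against 31% and 17.6% of all genes.

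**Figure D3:**
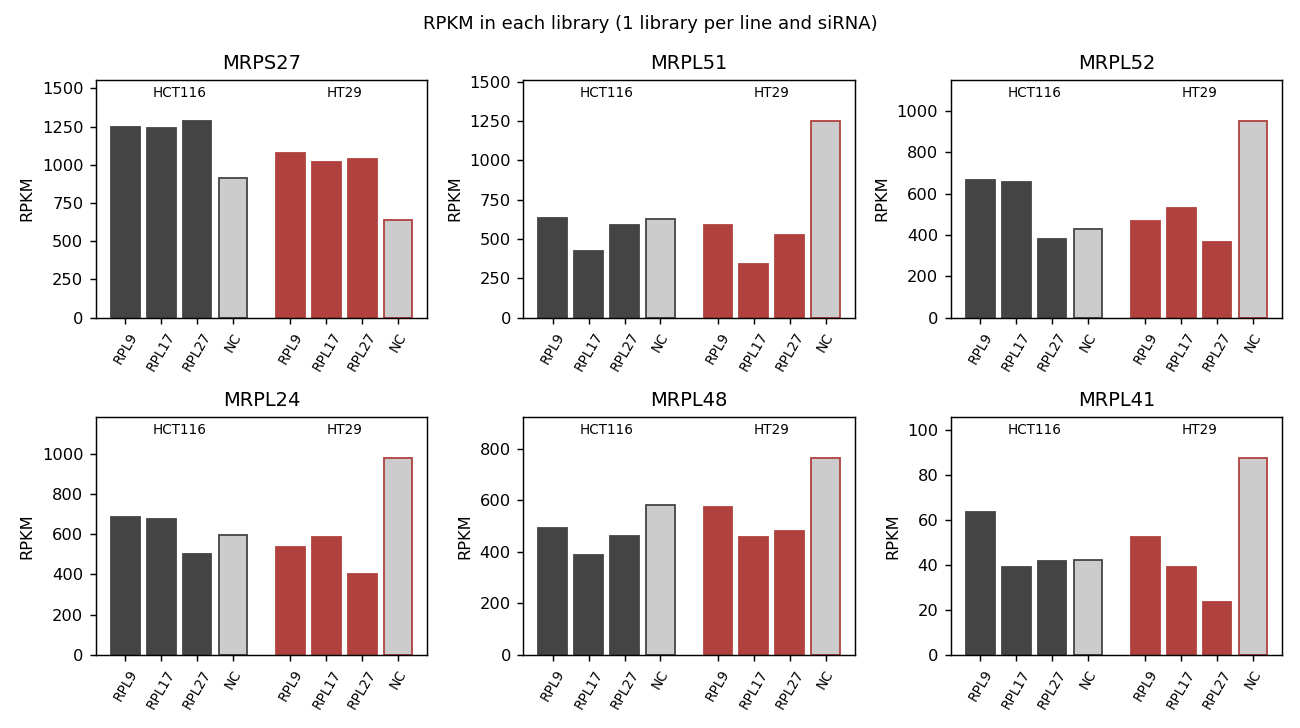
RPKM of 6 members in each of the 8 libraries (bars, 1 library each; HCT116 dark, HT29 red, NC siRNA in light grey). MRPS27 is above NC in all 6 RPL siRNA libraries, MRPL51 is lowest under RPL17 siRNA in both lines, MRPL52 and MRPL24 are lowest under RPL27 siRNA among the RPL siRNAs of both lines, MRPL48 is highest under NC siRNA in both lines, and MRPL41 is highest under RPL9 siRNA among the RPL siRNAs.

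The direct test of the line difference asked whether the RPL siRNA effect in HT29 departed from that in HCT116. limma called 36 members, all with the lower effect in HT29, 22 MRPL and 14 MRPS, where 6.11% of all genes were called lower and 16.8% higher. The median of the HT29 effect minus the HCT116 effect was -0.81 over the MRPL genes, -0.68 over the MRPS genes and 0.19 over all genes. MRPL23, a protein at the exit of the peptide tunnel, had 265, 302 and 258 RPKM in HT29 cells under RPL9, RPL17 and RPL27 siRNA, against 761 RPKM under NC siRNA, and 289.9, 333 and 292 RPKM in HCT116 cells, against 282 RPKM. All 7 values other than that of HT29 NC lay within a narrow band. Its effect differed by -1.58 (SE 0.23, adjusted p = 0.00326), and by -0.99 (SE 0.24, adjusted p = 0.0491) after length removal.

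MRPS24, a small subunit protein with a bacterial counterpart, differed between the lines by -1.69 (SE 0.32, adjusted p = 0.00914), MRPL55 by -1.69 (SE 0.36, adjusted p = 0.0132), MRPL53 by -1.51 (SE 0.37, adjusted p = 0.0249), MRPS26 by -1.30 (SE 0.30, adjusted p = 0.0197) and MRPS12 by -1.28 (SE 0.29, adjusted p = 0.0171), all with limma. After length removal MRPS24 differed by -1.09 (SE 0.32, adjusted p = 0.08), MRPL55 by -1.10 (SE 0.38, adjusted p = 0.12), MRPL53 by -1.04 (SE 0.38, adjusted p = 0.137), MRPS26 by -0.82 (SE 0.31, adjusted p = 0.146) and MRPS12 by -0.84 (SE 0.28, adjusted p = 0.114), none past the threshold. With the median transcript length all 5 and MRPL23 passed it, from -1.60 for MRPL55 to -1.17 for MRPS12, with adjusted p from 0.00783 for MRPL23 to 0.0465 for MRPL53. MRPS12 had differences from NC of opposite sign in the 2 lines. Under RPL9, RPL17 and RPL27 siRNA they were -0.43, -0.70 and -0.60 in HT29 and 0.89, 0.62 and 0.60 in HCT116. Its NC values were 106 RPKM in HCT116 and 214 RPKM in HT29, and all of its RPL siRNA values lay between them. MRPS27 had the largest positive line difference of the MRPS genes, 0.24 (SE 0.15, adjusted p = 0.299), which is not past the threshold, and 0.03 and 0.34 (adjusted p = 0.924 and 0.205) with the annotated and the median transcript length removed.

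After length removal 6 members were called, 4 of them among the 36, against 3.21% of all genes called lower, with medians of -0.45 (MRPL), -0.37 (MRPS) and -0.08 (all genes). With the median transcript length 21 members were called, against 6%, with medians of -0.71 and -0.62. The members called on all 3 scales were MRPL23, MRPL38, MRPL40 and MRPS23. MRPL40, a mitochondria-specific protein of the large subunit, had 168, 174 and 169.9 RPKM in HT29 cells under RPL9, RPL17 and RPL27 siRNA, against 308 RPKM under NC siRNA, and 181, 199 and 192 RPKM in HCT116 cells, against 129 RPKM. The 6 RPL siRNA values were alike in both lines and the 2 NC values lay on either side of them. MRPL38, MRPL40 and MRPS23 were chosen after their values were seen. Each line's effect uses 1 NC library, so a difference between the lines in their response and a difference between the 2 NC libraries cannot be told apart.

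The RPL siRNAs were then set against each other, which uses no NC library. As deposited, values under RPL9 siRNA tended to be somewhat above those under the other siRNAs. The RPL9 siRNA libraries also had the lowest correlations with transcript length of the RPL siRNA libraries. They were 0.12 in HCT116 and 0.13 in HT29, against 0.17 to 0.23 under RPL17 and RPL27 siRNA. The medians and counts that follow are as deposited, and what part of them goes with length was not tested. Between RPL9 and RPL17 siRNA the median difference was 0.11 over the MRPL genes and 0.09 over the MRPS genes, against -0.0095 over all genes, and 43 of 76 members were above in both lines, against 30.4% of all genes. Between RPL9 and RPL27 siRNA the medians were 0.14 and 0.13, against 0.0063, and 40 members were above in both lines, against 32.6%. Between RPL17 and RPL27 siRNA the medians were 0.03 and -0.01, against 0.0044, and 24 members were above in both lines, against 32.5%.

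None of these 3 comparisons gave a member past the threshold. limma called 0 members for RPL9 against RPL17 siRNA, against 0.329% of all genes, 0 for RPL9 against RPL27 siRNA, against 1.38%, and 0 for RPL17 against RPL27 siRNA, against 0.938%. An unadjusted p under 0.05 was reached by 19 members (15 higher), 16 members (14 higher) and 10 members (7 higher), against 19.6%, 20% and 17.4% of all genes. Each comparison pairs 2 libraries with 2 libraries, and 2 residual degrees of freedom remain.

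MRPL51, MRPL52 and MRPL24 had the lowest adjusted p among these pairs that the naming rule picked, and their promoters are shown because their values part the siRNAs in the same way in both lines. Each sequence is the 250 bases before the gene's start in RefSeq on GRCh38.p14, written 5′ to 3′ on the gene's strand. Capitals mark CCGGAAG or its reverse complement, a core bound by ETS factors such as GABPA, and AAGATGGCG or its reverse complement, a core bound by YY1. The MRPL51 window is chr12:6493263-6493512 (minus strand), the MRPL52 window chr14:22829637-22829886 (plus strand) and the MRPL24 window chr1:156741089-156741338 (minus strand).
MRPL51: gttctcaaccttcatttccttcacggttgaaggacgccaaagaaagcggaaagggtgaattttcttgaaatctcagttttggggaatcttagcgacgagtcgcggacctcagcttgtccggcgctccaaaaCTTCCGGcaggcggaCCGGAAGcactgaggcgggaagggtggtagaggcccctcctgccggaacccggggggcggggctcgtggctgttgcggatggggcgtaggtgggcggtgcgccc
MRPL52: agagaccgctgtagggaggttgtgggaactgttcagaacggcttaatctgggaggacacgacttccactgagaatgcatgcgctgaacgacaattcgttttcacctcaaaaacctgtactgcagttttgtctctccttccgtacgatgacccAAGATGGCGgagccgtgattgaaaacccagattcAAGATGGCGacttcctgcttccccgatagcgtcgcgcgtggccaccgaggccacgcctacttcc
MRPL24: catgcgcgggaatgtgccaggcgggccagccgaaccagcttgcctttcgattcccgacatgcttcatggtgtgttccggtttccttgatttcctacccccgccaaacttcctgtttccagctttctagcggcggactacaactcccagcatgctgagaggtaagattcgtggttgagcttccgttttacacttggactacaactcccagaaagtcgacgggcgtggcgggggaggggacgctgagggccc
The MRPL51 window holds CCGGAAG in 2 places, once on each strand, the MRPL52 window holds AAGATGGCG in 2 places, and the MRPL24 window holds neither.

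Among the 67 members with a promoter in the RefSeq table, 22 (32.8%) held CCGGAAG on either strand, against 8.82% of all 27305 promoters and 14.7% of the 10627 promoters of tested genes. The share was 32.5% in MRPL and 33.3% in MRPS genes. AAGATGGCG was in 3 members (4.48%), all MRPL, against 0.641% of all promoters and 0.96% of those of tested genes. A motif bound by NRF1 (GCGC, any base, then TGCGC) was in 7 members (10.4%), against 5.53% and 9.53%. The 3 motifs share no overlapping match in the windows shown. A match describes the letters of the window and was not tied to the values.

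MRPL51, a mitochondria-specific protein of the large subunit, had 633, 424 and 589 RPKM in HCT116 cells under RPL9, RPL17 and RPL27 siRNA, against 628 RPKM under NC siRNA, and 591, 340.4 and 523 RPKM in HT29 cells, against 1254 RPKM under NC siRNA. RPL17 siRNA gave the lowest value of each line. The difference was 0.69 (SE 0.09, adjusted p = 0.0556) for RPL9 against RPL17 siRNA and -0.55 (SE 0.09, adjusted p = 0.0652) for RPL17 against RPL27 siRNA with limma. MRPL52, mitochondria-specific as well, had 669, 659 and 379 RPKM in HCT116 cells under RPL9, RPL17 and RPL27 siRNA, against 431 RPKM under NC siRNA, and 467, 530.0 and 366 RPKM in HT29 cells, against 954 RPKM under NC siRNA. In both lines the value under RPL27 siRNA was the lowest, and the differences were 0.59 (SE 0.13, adjusted p = 0.0907) for RPL9 and 0.67 (SE 0.13, adjusted p = 0.0776) for RPL17 against RPL27 siRNA. MRPL24, which has a bacterial counterpart, had 688, 674 and 502 RPKM in HCT116 cells under RPL9, RPL17 and RPL27 siRNA, against 595 RPKM under NC siRNA, and 535, 587 and 401 RPKM in HT29 cells, against 979.6 RPKM under NC siRNA. It too was lowest under RPL27 siRNA in both lines, with differences of 0.43 (SE 0.09, adjusted p = 0.0794) for RPL9 and 0.49 (SE 0.09, adjusted p = 0.0698) for RPL17 against RPL27 siRNA.

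Further members parted the siRNAs with a higher adjusted p. MRPL36, a short protein of the large subunit with a bacterial counterpart, differed between RPL9 and RPL17 siRNA by 0.81 (SE 0.23, adjusted p = 0.152) with limma. MRPL41, a mitochondria-specific protein also studied as a partner of p53 and BCL2, had 63.7, 39.2 and 41.9 RPKM in HCT116 cells under RPL9, RPL17 and RPL27 siRNA, against 42.3 RPKM under NC siRNA, and 52.4, 39.1 and 23.4 RPKM in HT29 cells, against 87.6 RPKM under NC siRNA. Among the RPL siRNAs RPL9 siRNA gave its highest value in both lines, and its difference from RPL27 siRNA was 0.86 (SE 0.25, adjusted p = 0.151). In the small subunit MRPS24 and MRPS21 differed between RPL9 and RPL17 siRNA by 0.41 (SE 0.11, adjusted p = 0.131) and 0.35 (SE 0.09, adjusted p = 0.129). MRPS18B was the reverse, with -0.25 (SE 0.08, adjusted p = 0.177) for RPL9 against RPL17 siRNA. MRPS16, a small subunit protein, differed between RPL17 and RPL27 siRNA by 0.44 (SE 0.14, adjusted p = 0.196).

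The lines themselves were compared under the 3 RPL siRNAs, without the NC libraries. Members were more often higher in HCT116: limma called 19 members higher in HCT116 than in HT29, 14 MRPL and 5 MRPS, and 2 lower, against 11.1% of all genes higher and 11.7% lower. The median difference was 0.20 over the MRPL genes, 0.15 over the MRPS genes and 0.04 over all genes. In 28 members all 3 HCT116 values lay above all 3 HT29 values, against 16.4% of all genes, and in 4 members all lay below, against 15.9%.

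MRPS23, a mitochondria-specific protein of the small subunit, had 1209, 1214 and 1113 RPKM in HCT116 cells under RPL9, RPL17 and RPL27 siRNA, against 772, 774 and 739.8 RPKM in HT29 cells. The groups did not overlap, and the difference was 0.63 (SE 0.06, adjusted p = 0.00167) with limma. MRPL18, a large subunit protein with a bacterial counterpart, had 444, 424 and 416 RPKM in HCT116 cells under RPL9, RPL17 and RPL27 siRNA, against 326, 280.4 and 282 RPKM in HT29 cells. The difference was 0.53 (SE 0.08, adjusted p = 0.00772), again without overlap. MRPS18B, 1 of 3 paralogs related to a bacterial small subunit protein, had 1411, 1564 and 1295 RPKM in HCT116 cells under RPL9, RPL17 and RPL27 siRNA, against 952, 1212 and 1003 RPKM in HT29 cells, with a difference of 0.43 (SE 0.06, adjusted p = 0.00778). Its paralogs MRPS18A, whose protein sits in the large subunit, and MRPS18C differed by -0.07 (SE 0.09, adjusted p = 0.613) and 0.19 (SE 0.09, adjusted p = 0.173), neither past the threshold.

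Members of the stalk and its base were among the higher ones. MRPL12 differed by 0.30 (SE 0.06, adjusted p = 0.0197) and MRPL11, which helps to bind translation factors, by 0.35 (SE 0.09, adjusted p = 0.0423) with limma, while MRPL10 was at 0.32 (SE 0.11, adjusted p = 0.0842). MRPL3 differed by 0.27 (SE 0.06, adjusted p = 0.0207) and MRPL34 by 0.63 (SE 0.16, adjusted p = 0.0374). In the small subunit MRPS22, MRPS27 and MRPS9 were higher by 0.28 (SE 0.06, adjusted p = 0.0242), 0.27 (SE 0.06, adjusted p = 0.0223) and 0.28 (SE 0.08, adjusted p = 0.0459). The 2 members called lower in HCT116 were large subunit proteins with bacterial counterparts. MRPL13 had 917, 986 and 938 RPKM in HCT116 cells under RPL9, RPL17 and RPL27 siRNA, against 1525, 1364 and 1226 RPKM in HT29 cells, a difference of -0.53 (SE 0.08, adjusted p = 0.0084). MRPL28 had 220.0, 225 and 231 RPKM in HCT116 cells under RPL9, RPL17 and RPL27 siRNA, against 292, 307 and 300.3 RPKM in HT29 cells, a difference of -0.41 (SE 0.08, adjusted p = 0.0205). MRPS30, whose protein sits in the large subunit, and MRPS36, which is also known as a component of the 2-oxoglutarate dehydrogenase complex, were at 0.09 and -0.19, not past the threshold.

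**Figure D4:**
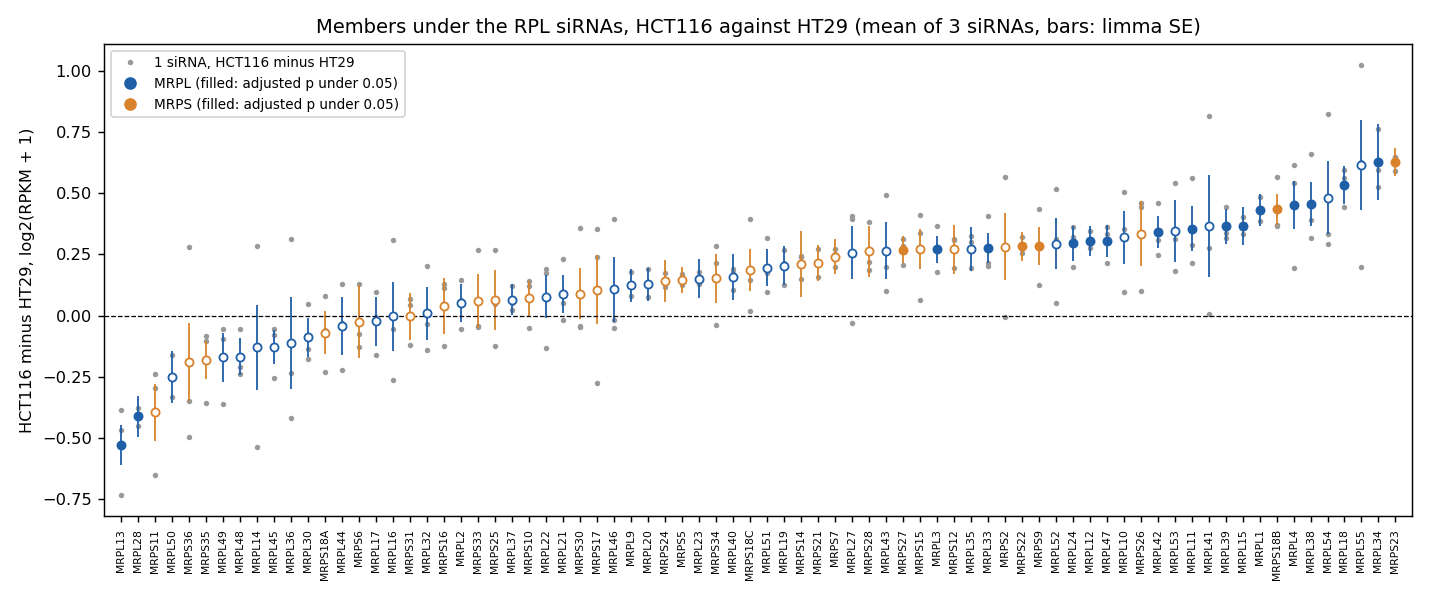
Difference in log2(RPKM + 1) between HCT116 and HT29 under the RPL siRNAs for the 76 members in order of size. Large points with bars are limma estimates with their SE (blue MRPL, orange MRPS; filled where the adjusted p is under 0.05) and grey dots are the 3 siRNAs singly. MRPL13 (-0.53) and MRPL28 (-0.41) are the called members below 0, and the 19 called above 0 reach 0.63 for MRPS23.

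All 21 of these calls were also made after either length removal, each of which called 28 members higher and 2 lower, against 17% and 10.2% of all genes after the first and 17.2% and 10.1% after the second. The count was less steady when a library was left out, at 4 without HCT116 RPL17 or HT29 RPL17, 6 without HCT116 RPL27 or HT29 RPL27 and 13 without HCT116 RPL9. It was 1, MRPS23, when the variance was not modelled on level. The shares of all genes called in these fits are not given, so no change of the members relative to all genes is read from these counts.

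By origin of the proteins, the 29 large subunit members with bacterial counterparts had 11 calls higher in HCT116 and 2 lower, where 11.1% of all genes were called higher and 11.7% lower. The 17 mitochondria-specific large subunit members had 3 higher, MRPL38, MRPL39 and MRPL42. The 16 small subunit members with bacterial counterparts had 1 higher, and the 10 listed as mitochondria-specific had 4, MRPS18B, MRPS22, MRPS23 and MRPS27. MRPS18B was placed in that list although it is related to a bacterial small subunit protein. For the RPL siRNAs jointly against NC, as deposited, after length removal and with the median transcript length, the medians were -0.20, -0.08 and -0.19 over the large subunit members with bacterial counterparts and -0.25, -0.11 and -0.19 over the mitochondria-specific ones. Over the small subunit members they were -0.13, -0.03 and -0.16 with bacterial counterparts and -0.17, -0.05 and -0.14 over those listed as mitochondria-specific.

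Other genes of mitochondrial gene expression were read beside the members. For the RPL siRNAs jointly against NC limma called 0 of 7 mitoribosomal proteins under other symbols (median -0.35), 0 of 17 translation factors (0.08), 0 of 28 assembly and rRNA modification factors (-0.0037), 0 of 18 genes of mitochondrial transcription and RNA handling (0.16) and 0 of 9 regulators (0.24). Of all genes 0.168% were past the threshold in this contrast. At an unadjusted p under 0.05 there were 0, 3, 2, 3 and 2 of the listed genes, against 24.6% of all genes. MALSU1, an assembly factor of the large subunit, had 196, 183 and 186 RPKM in HCT116 cells under RPL9, RPL17 and RPL27 siRNA, against 293 RPKM under NC siRNA, and 193, 157 and 174 RPKM in HT29 cells, against 497 RPKM under NC siRNA. All 6 values lay below both NC values, with a difference of -1.07 (SE 0.24, adjusted p = 0.0962) by limma. TSFM, the exchange factor of the mitochondrial elongation factor TUFM, differed by -0.70 (SE 0.25, adjusted p = 0.173), and MTERF, a mitochondrial termination factor, by 0.72 (SE 0.23, adjusted p = 0.146). With the annotated and the median transcript length removed MALSU1 differed by -1.18 and -1.32 (adjusted p = 0.0505 and 0.0718) and TSFM by -0.65 and -0.64 (adjusted p = 0.121 and 0.142), and MTERF by 0.76 (adjusted p = 0.0905) with the annotated length. Without the HT29 and without the HCT116 NC library the differences were -0.64 and -1.51 for MALSU1. In the same order they were -0.28 and -1.12 for TSFM and 0.52 and 0.93 for MTERF.

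Of the 79 genes in these 5 lists limma called 16 higher in HCT116 than in HT29, against 11.1% of all genes, and 1 lower, against 11.7%, MTIF3 (-0.37). Among the higher ones were the elongation factor TUFM (0.38), the initiation factor MTIF2 (0.42), the RNA polymerase POLRMT (0.49), the RNA helicase DHX30 (0.53), the tRNA processing enzyme ELAC2 (0.56) and LRPPRC (0.25), which stabilizes mitochondrial messenger RNAs. The cytosolic ribosomal protein genes, by contrast, had medians of 0.04 (large subunit) and 0.0094 (small subunit) between the lines. In the effect of the RPL siRNAs in HT29 minus that in HCT116 they had medians of -1.02 and -1.08, against -0.81 (MRPL) and -0.68 (MRPS). After length removal the medians were -0.64 and -0.62, against -0.45 and -0.37, and with the median transcript length -0.93 and -1.04, against -0.71 and -0.62.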

How the data were processed

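RNA sequencing was done on 8 libraries, 1 for each of 2 cell lines and 4 siRNAs. Per the submitters' processing notes CASAVA 1.8.2, TopHat2 2.0.9 and the hg19 build were used, and no source used here states how reads were assigned to genes. The authors deposited RPKM values, 1 per gene and library. Depth is unknown, so no counting interval was computed.

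Differences were computed on log2(RPKM + 1) for the 14281 genes whose mean reached 1 RPKM. A limma model with trend (limma 3.58.1, R 4.3.3) was fitted over all of them with Benjamini-Hochberg adjustment, two-sided, at a threshold of 0.05, in 9 comparisons. siRNA contrasts had a term for the cell line, which pairs the libraries by line and leaves 3 residual degrees of freedom (8 libraries) or 2 (6 libraries). The line contrast had a term for the siRNA, and the line difference of the effect (4 residual degrees of freedom) took the RPL siRNAs as replicates. P-values measure the spread between lines or siRNAs. The fits were tested on simulated data.

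Length removal took a spline with 5 degrees of freedom on transcript length out of each library (14181 genes), or on the median coding transcript length (13481 genes), a choice added after seeing the data. Other alternatives were pseudocounts of 0.1 and 5, no filter, a minimum mean of 5 RPKM, quantile normalization, median-centring, limma without trend or with robust variances, no line term and each library left out.

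Members and gene lists were chosen with earlier results of these data known. Named members were the 5 highest and 5 lowest of each subunit for the mean contrast, the 3 and 3 with the larger difference in the line where it was smaller for single siRNAs and pairs, the 4 and 4 for the lines, the 3 and 3 for the line difference, and 20 members fixed by role. Of the other lists, genes past the threshold or at the ends of the mean contrast were named. Promoters are from RefSeq (GRCh38.p14), with motifs counted on both strands by script in Python 3.11.15.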

Additional observations from a re-analysis of the deposited data

Results flagged for a closer look

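The effect of the RPL siRNAs differed between the lines for 6 of the named members in the limma interaction test with Benjamini-Hochberg adjustment, as the HT29 effect minus the HCT116 effect. The difference was -1.69 for MRPL55 (adjusted p = 0.0132), -1.58 for MRPL23 (adjusted p = 0.00326) and -1.51 for MRPL53 (adjusted p = 0.0249). For the small subunit it was -1.69 for MRPS24 (adjusted p = 0.00914), -1.30 for MRPS26 (adjusted p = 0.0197) and -1.28 for MRPS12 (adjusted p = 0.0171). In all 6 the HT29 NC value was the highest of the 8 libraries, and the length trend of that library moves with these values. Of the 6, MRPL23 was also past the threshold after removal of the annotated transcript length, and all 6 were past it with the median transcript length.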

How the results depend on the processing

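No replicate exists within a line, so leaving out a library leaves a lone library that is assumed to vary like the others. Counts are members called by limma with Benjamini-Hochberg adjustment, and differences are log2. Where no share of all genes stands beside a count, no excess of members over all genes is read from it. Where a cause is not named, the cause was not tested. For the RPL siRNAs jointly against NC the count was 1 after length removal, against 0. Over the libraries left out in turn it ran from 0 to 57, and those of RPL9, RPL17 and RPL27 siRNA alone from 0 to 48, 0 to 52 and 0 to 58. The highest counts came without the HCT116 NC library, and without the HT29 NC library they were 10, 12, 7 and 4. Without an NC library the contrast rests on the other line's NC. Shares of all genes called are not given here beside these counts, so no excess of members over all genes is read from them. The MRPS median ran from -0.57 to 0.24, below 0 without the HCT116 and above 0 without the HT29 NC library. MRPL42 turned to -0.38 after length removal, MRPS12 (0.06 as deposited) turned to -0.12 with quantile normalization and -0.14 with median-centring, and over the libraries left out MRPS12 ran from -0.58 to 0.70 and MRPL12 from -1.02 to 0.0947.

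For HCT116 against HT29 the count of 21 was 7 with no filter and 1 without trend, and ran from 4 to 16 over the libraries left out. The shares of all genes called in these fits are not given, so whether the members changed apart from all genes cannot be read from them. The MRPL median was 0.24 with median-centring, 0.27 after length removal and 0.28 by median transcript length, and the MRPS median was 0.23 and 0.23 after the length removals. For the HT29 effect minus the HCT116 effect the count of 36 was 57 with median-centring, which shifts all genes, and 19 without trend. It was 6 and 21 after the length removals, against 3.21% and 6% of all genes called lower. Over the libraries left out it ran from 20 to 31. The MRPL median was -1.06 with quantile normalization, -1.26 with median-centring and -0.45 and -0.71 after the length removals, and the MRPS median was -0.94, -1.13, -0.37 and -0.62. Over the libraries left out they ran from -0.86 to -0.79 and from -0.81 to -0.68. MRPS27 turned to -0.20 with median-centring, and MRPL42 to -0.27 with median-centring and -1.38 after length removal.

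For RPL9 against RPL17 siRNA the count was 1 (MRPL51) with a pseudocount of 5, with a mean of at least 5 RPKM, with quantile normalization and by median transcript length, against 0. For RPL9 against RPL27 siRNA it was 1 (MRPL33) by median transcript length. For RPL17 against RPL27 siRNA it was 3 (MRPL24, MRPL51 and MRPL52) with a mean of at least 5 RPKM, 1 (MRPL51) with quantile normalization and 0 to 1 over the libraries left out. The MRPS median for RPL9 against RPL27 was 0.10 with quantile normalization and 0.14 by median transcript length, and for RPL17 against RPL27 the medians were 0.0119 (MRPL) and -0.0387 (MRPS) with quantile normalization. Over the libraries left out the MRPL medians ran from 0.0761 to 0.11, 0.0861 to 0.21 and -0.00543 to 0.0573 in the 3 comparisons, and the MRPS medians of RPL9 and of RPL17 against RPL27 from 0.0737 to 0.13 and -0.0232 to 0.0232. With no replicate block for the cell line the count was 0 in all siRNA comparisons, the medians were unchanged by construction, and no call changed. Depth is unknown and 1 library per line and siRNA limits every value.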

Other observations

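MRPL46 and MRPS11 are head to head on chromosome 15, with starts 320 bases apart and promoter windows that share 181 bases, and they were chosen for that arrangement. In HCT116 MRPL46 differed from NC by 0.42 (RPL9 siRNA), 0.47 (RPL17 siRNA) and 0.19 (RPL27 siRNA), and MRPS11 by 0.06, 0.05 and -0.30. In HT29 MRPL46 differed by -0.38, -0.75 and -0.58, and MRPS11 by -0.18, -0.26 and -0.20. The MRPS11 value was under the MRPL46 value in all 3 HCT116 comparisons and over it in all 3 HT29 comparisons. The annotated transcripts are 3644 bases (MRPS11) and 1019 bases (MRPL46) long. The HT29 values are as deposited and carry the length trend of the HT29 NC library. The difference between the genes was not tested.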
